A study of Mus musculus with 7 samples.

Results

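The nuclear-encoded subunits of the mitochondrial respiratory chain and ATP synthase were described in regulatory T cells (Tregs) of mouse skin and of its draining lymph nodes (SDLN, skin-draining lymph nodes). The genes were chosen by name, and no expression value was used: all gene symbols of the count table that begin with Nduf, Uqcr or Atp5, that begin with Cox4i, Cox5, Cox6, Cox7 or Cox8, or that are Sdha, Sdhb, Sdhc or Sdhd. The rule found 92 of 24084 gene symbols, made up of 38 genes named as complex I subunits, 7 complex I assembly factors (Ndufaf genes), 4 genes of complex II, 8 of complex III, 18 of complex IV and 17 of complex V. No pseudogene symbol had to be dropped, and all 92 genes are protein-coding in the GENCODE annotation.

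The tissue Tregs came from telogen skin, telogen being the resting phase of the hair cycle, in 4 libraries, and the comparison Tregs from SDLN in 3 libraries. All mice were 6 weeks old and of the Foxp3-DTR strain, given in the design text as Foxp3-DTR/GFP, an allele by which Foxp3-expressing cells carry the diphtheria toxin receptor and a green fluorescent protein. The question set by the design is how the transcriptomes of Tregs from these tissues differ. The sorting gates and the number of animals behind each library are not given in the labels, so p-values measure the spread between these libraries.

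The respiratory chain sits in the inner mitochondrial membrane. Complex I (NADH dehydrogenase) and complex II (succinate dehydrogenase, which is also an enzyme of the citric acid cycle) pass electrons to ubiquinone, complex III passes them on to cytochrome c, and complex IV (cytochrome c oxidase) reduces oxygen. Complexes I, III and IV pump protons, and complex V (ATP synthase) uses the resulting gradient to make ATP. A few core subunits are encoded in mitochondrial DNA, and those genes are not analysed here; the genes described below are encoded in the nucleus. In T cells, Tregs are known for a larger reliance on oxidative phosphorylation than activated effector T cells.

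Gene counts per library were 11009609 to 13921238 in skin and 13123241 to 14785751 in SDLN, and 9690 to 12639 genes in skin and 13408 to 13845 in SDLN had at least 1 count. Below, levels are CPM, counts scaled to the size of the library. The 9 Treg markers in the table (among them Foxp3, Il2ra and Cd3e) were all detected and summed to 8914 to 14148 CPM in skin and 9152 to 11414 CPM in SDLN. These markers did not all have the same direction: Ctla4, an inhibitory receptor, and Ikzf2, the transcription factor Helios, rose 5.87-fold and 2.23-fold in skin (edgeR adjusted p = 0.00501 and 0.0385, called in 12 and 7 of 15 alternatives). Cd3e and Cd3d, chains of the T cell receptor complex, and the co-receptor Cd4 were lower in skin by mean, with no overlap between tissues. Their means were 881.8, 580 and 466 CPM in skin, against 1848, 1081 and 738 CPM in SDLN. These genes did not pass the test (log2 fold changes -1.07, -0.90 and -0.66, edgeR adjusted p = 0.118, 0.179 and 0.246). Each estimate was further below 0 than the median of -0.32 of the respiratory chain genes given below. Foxp3 went the other way, with means of 169 CPM in skin and 89.0 CPM in SDLN and no overlap (log2 fold change 0.93, edgeR adjusted p = 0.242). For Tnfrsf18, Il2ra and Cd3g the tissues overlapped, with log2 fold changes of 0.42, -0.28 and -0.73. Markers of other cells moved with the tissue or with a library: 13 of 14 macrophage and dendritic cell markers in the table were detected in at least 1 library, with sums of 192 to 662 CPM in skin and 18.0 to 27.3 CPM in SDLN, and Cd207 at 0 throughout. Lyz2 alone made up most of the sum in skin 2 and skin 4. Of the skin libraries, skin 4 alone had counts of Itgam and Itgax. Skin 3 held 2000 CPM of the 6 fibroblast markers and 819 CPM of the 8 keratinocyte markers, whereas the other skin libraries held 2.85 to 8.84 CPM and 0.647 to 20.7 CPM; in SDLN these sums were 0.232 to 0.882 CPM and 2.55 to 2.65 CPM. All 5 mast cell markers had no count in skin. The part of these other cells in the results below was not tested. For skin 1 the labels disagree, with lymph node as the tissue tag and skin in the title and source, and SDLN 3 was the sole library with more than 2 counts of the Y-linked gene Ddx3y (3877 counts), so the sex of the mouse and the other features of SDLN 3 cannot be told apart. Because these libraries stand apart, results are also given without skin 1, skin 3 or SDLN 3.

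Several transcription factors are known to bind promoters of respiratory chain genes, among them NRF-1, ETS-family factors (such as GABP, also called NRF-2) and YY1. RefSeq promoters (GRCm38.p6, 250 bases before to 50 after the start) were found for 76 of the 92 genes and were searched on both strands for a consensus of each factor: the letters CCGGAAG for ETS, and for NRF-1 and YY1 the letters that stand in capitals in the promoters of Uqcrc1 and Ndufa9 below, where the ETS and YY1 letters share AAG and can overlap. The NRF-1 letters were in 7 of the 76 promoters (9.21%, against 1.07% of the promoters of 27025 genes), the ETS letters in 17 (22.4%, against 9.93%) and the YY1 letters in 5 (6.58%, against 0.755%). In all, 27 promoters held at least 1 of the 3 motifs, and 2, those of Atp5k and Cox6a1, held more than 1. These are matches of letters and not bound sites, and a promoter without a match may hold variants of the motif. The sequences below show each motif in genes described below, Ndufs8, which was called lower in skin, and Ndufa9, Uqcrc1 and Cox6a1, which were not called, read 5′ to 3′ on the gene's strand, with the matched letters in capitals. In Ndufs8 (chr19:3912725-3913024, minus strand) the ETS match lies after the start on the opposite strand; in Ndufa9 (chr6:126849095-126849394, minus strand) the YY1 match and in Uqcrc1 (chr9:108936398-108936697, plus strand) the NRF-1 match also lie just past the start. Cox6a1 (chr5:115348909-115349208, minus strand) holds an NRF-1 match well upstream and an ETS match just before the start.
Ndufs8: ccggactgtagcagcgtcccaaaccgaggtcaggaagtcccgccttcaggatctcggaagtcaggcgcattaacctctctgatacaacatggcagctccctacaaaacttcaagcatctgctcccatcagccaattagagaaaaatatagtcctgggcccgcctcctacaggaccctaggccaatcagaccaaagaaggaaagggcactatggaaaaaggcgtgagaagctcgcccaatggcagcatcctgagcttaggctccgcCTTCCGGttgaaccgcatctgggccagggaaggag
Ndufa9: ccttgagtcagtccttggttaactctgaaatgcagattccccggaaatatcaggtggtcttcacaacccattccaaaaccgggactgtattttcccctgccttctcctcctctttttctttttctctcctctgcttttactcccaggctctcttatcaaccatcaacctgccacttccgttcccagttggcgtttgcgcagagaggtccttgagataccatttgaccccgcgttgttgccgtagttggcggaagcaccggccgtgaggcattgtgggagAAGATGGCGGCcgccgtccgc
Uqcrc1: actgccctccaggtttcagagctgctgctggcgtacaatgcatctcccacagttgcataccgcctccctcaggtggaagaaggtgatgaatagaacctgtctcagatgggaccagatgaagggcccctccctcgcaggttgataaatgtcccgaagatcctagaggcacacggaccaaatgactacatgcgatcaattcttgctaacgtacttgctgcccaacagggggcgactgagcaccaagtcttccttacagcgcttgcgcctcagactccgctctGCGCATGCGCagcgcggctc
Cox6a1: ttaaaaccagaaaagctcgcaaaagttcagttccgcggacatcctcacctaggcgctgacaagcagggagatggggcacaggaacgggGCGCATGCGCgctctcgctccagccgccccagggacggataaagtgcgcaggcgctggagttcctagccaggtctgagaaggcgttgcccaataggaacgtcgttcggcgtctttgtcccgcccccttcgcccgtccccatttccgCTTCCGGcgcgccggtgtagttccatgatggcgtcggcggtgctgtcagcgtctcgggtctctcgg

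In the comparison of skin with SDLN Tregs, most respiratory chain genes had lower estimates in skin, by modest factors, and few of them stood clear of the spread between libraries. Of the 92 genes, 84 passed the low-count filter, the others being 6 complex IV isoforms, Ndufa4l2 and Ndufs5, and 0 were called higher and 2 lower in skin (edgeR quasi-likelihood test, Benjamini-Hochberg adjusted p under 0.05 over 11376 genes). Those 2 were Ndufs8 of complex I and Atp5s, a gene named for ATP synthase. Atp5s had no count in skin and passed the filter through the SDLN libraries alone, so its call only describes its counts. Over all tested genes, 7.24% were called, 3.28% higher and 3.96% lower, so the share of called members, 2.38%, was not above that of genes at large. At an unadjusted p under 0.05, 2 members were higher (Atp5d and Atp5b) and 11 lower, against 1142 higher and 969 lower among all tested genes. DESeq2 called 0 members higher and 8 lower (Ndufs8, Atp5s, Sdha, Atp5f1, Uqcrc2, Cox7a2l, Ndufv2 and Ndufa9), where 8.66% of all genes were called higher and 4.76% lower.

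The members' median log2 fold change was -0.32, with 64 of 84 estimates (76.2%) below 0, beside a median of 0.05 and 48.2% of estimates below 0 over all tested genes. Setting Atp5s, which had no count in skin, at its bound could not move this median, as Atp5s stays the lowest estimate either way. The 4 skin libraries lay below the 3 SDLN libraries without overlap for 13 members (15.5%) and above them for 0, against 16.5% and 10.1% of all tested genes. The members' place relative to other genes depended on the tool and on the terms of the fit. With limma-voom the members' median was -0.44 beside a median of -0.62 for all genes, so that the members lay above the typical gene there. In edgeR with the replicate number as a block over 6 libraries, the medians were -0.547 for members and -0.552 for all genes. Between 2.38% and 4.76% of the tested members had no count in a given skin library, compared with 7.59% to 19.5% of all tested genes; the part this plays in the estimates was not tested. Less RNA of these genes per cell and fewer cells that express them cannot be told apart in sorted bulk libraries.

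**Figure D1:**
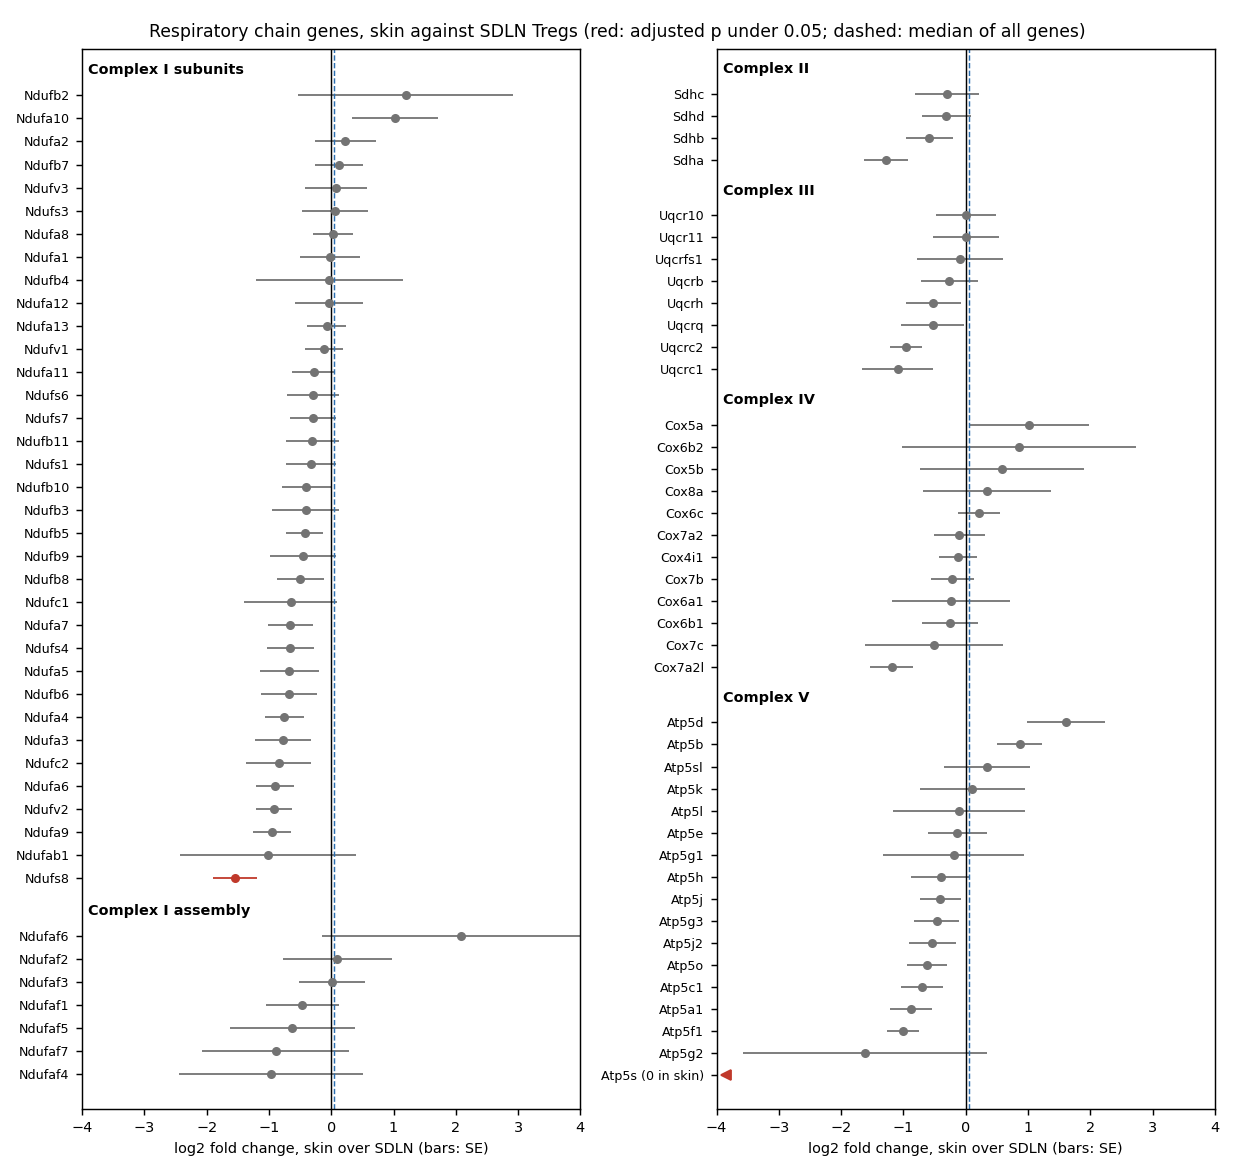
Log2 fold change, skin over SDLN, of the tested respiratory chain genes reported here, by complex; points are edgeR estimates, bars their SE, the dashed line the median of all tested genes, and red marks adjusted p under 0.05. Most points lie left of 0, with a members' median of -0.32; Atp5s, with no count in skin, is drawn as an arrow at the left edge and the bar of Ndufaf6 runs past the right edge.

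Leaving out libraries changed which members were called. The calls listed here include Atp5s, which had no count in skin. Without skin 1, 4 members were called lower (Sdha, Atp5f1, Atp5s and Ndufs8) and 1 higher (Atp5d), where 5.70% of all genes were called lower and 5.13% higher, and the members' median was -0.25. Without skin 3, the library with fibroblast and keratinocyte transcripts, 3 members were called lower (Uqcrc2, Atp5a1 and Atp5s), where 7.33% of all genes were called lower, and the median was -0.34. Without SDLN 3, 0 members were called in either direction, where 0.127% of all genes were called lower and 0.515% higher, and the median was -0.15. The test also called 0 members without SDLN 1 or without SDLN 2, when 2 SDLN libraries remained and no more than 39 genes in either direction were called in the whole table.

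Complex I subunits were lower by estimate in 29 of 36 tested genes, with a median log2 fold change of -0.41; 1 was called lower and 0 higher. Ndufs8, an iron-sulphur subunit of the arm that carries electrons from NADH to ubiquinone, fell in skin. It lies at chr19:3908863-3912774 on the minus strand (GRCm38), and its ETS promoter match is shown above. Ndufs8 had 107, 81.8, 64.4 and 48.2 CPM in skin 1 to 4, against 202, 177 and 284 CPM in SDLN 1 to 3. Every skin library was below every SDLN library, and the means were 75.3 ± 25.1 CPM in skin (SD, n = 4) and 221 ± 56.0 CPM in SDLN (SD, n = 3). The fall was 2.93-fold (log2 fold change -1.55, SE 0.35, adjusted p = 0.0389, edgeR). The call rested on several libraries: adjusted p was 0.0314 without skin 1, 0.0533 without skin 2, 0.0629 without skin 3, 0.0615 without skin 4 and 0.167, 0.176 and 0.194 without SDLN 1, 2 and 3, with log2 fold changes of -1.77 to -1.34.

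In 7 of 36 tested complex I subunits (19.4%) the skin libraries lay below the SDLN libraries without overlap, near the 16.5% of all tested genes. In 0 they lay above, against 10.1% of all tested genes. Of the 7, all but Ndufs8 did not pass the test, and these other 6 are given next. Ndufv2, an iron-sulphur subunit near the NADH site, had 131, 142, 95.6 and 172 CPM in skin 1 to 4, against 247, 217 and 303 CPM in SDLN 1 to 3 (log2 fold change -0.92, SE 0.28, adjusted p = 0.111). Ndufa9, an accessory subunit that binds a nucleotide cofactor and whose promoter is shown above, had 129, 89.9, 158 and 135 CPM in skin 1 to 4, against 220.1, 194 and 329.9 CPM in SDLN 1 to 3 (log2 fold change -0.95, SE 0.31, adjusted p = 0.127). For both genes SDLN 3 was the highest library and the skin values spread over less than 2-fold. Ndufa6, an accessory subunit at the base of the peripheral arm, averaged 118 ± 24.9 CPM in skin (SD, n = 4) and 221 ± 67.0 CPM in SDLN (SD, n = 3), and the accessory subunits Ndufa3 and Ndufb6 averaged 82.1 and 35.7 CPM in skin, against 141 and 57.0 CPM in SDLN. Ndufa4 carries a complex I name although the mammalian protein is also counted as a cytochrome c oxidase subunit. It averaged 91.5 ± 16.7 CPM in skin (SD, n = 4) and 154 ± 42.9 CPM in SDLN (SD, n = 3). Adjusted p-values of these genes were 0.153 to 0.524.

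Among complex I subunits, the accessory subunit Ndufb2 had the highest estimate (log2 fold change 1.20, SE 1.72, adjusted p = 0.816). Ndufb2 had 0.368, 2.27, 21.3 and 0.285 CPM in skin 1 to 4, against 2.04, 4.49 and 1.39 CPM in SDLN 1 to 3; skin 3 alone carried that estimate, which was -1.42 without it, and exons of Ndufb2 overlap those of Braf. Per length means per kilobase of the union of a gene's annotated exons, so such rankings depend on the annotation. That union can far exceed a single transcript, as in Ndufa6 (1801 against 590 bases). By this measure Ndufa1 and Ndufa13, small accessory subunits, were the most abundant complex I genes. They had 173 and 167 CPM per kilobase of exon in skin, against 176 and 176 CPM per kilobase in SDLN. Their log2 fold changes were -0.02 and -0.07, with adjusted p of 0.992 and 0.950, and turned positive without skin 1 (0.19 and 0.07) or without SDLN 3 (0.25 and 0.18).

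The 7 complex I assembly factors were low and uneven in skin, and 0 were called in either direction. Their median coefficient of variation (SD over mean of CPM) was 0.811 in skin and 0.263 in SDLN. Ndufaf4 had 21.2, 53.0, 12.3 and 0 CPM in skin 1 to 4, against 38.8, 46.1 and 41.5 CPM in SDLN 1 to 3, with no count in skin 4. Ndufaf7 had 29.2, 0.243, 66.1 and 38.4 CPM in skin 1 to 4, against 67.4, 49.2 and 69.5 CPM in SDLN 1 to 3, nearly absent from skin 2. Ndufaf6 had 0, 11.4, 9.78 and 0 CPM in skin 1 to 4, against 1.15, 1.8 and 0.772 CPM in SDLN 1 to 3, so skin held both the libraries with no count and the highest ones (log2 fold change 2.09, SE 2.24). The factors most abundant per length, Ndufaf1 and Ndufaf3, averaged 32.2 ± 16.6 CPM in skin (SD, n = 4) and 44.3 ± 7.49 CPM in SDLN (SD, n = 3) for Ndufaf1, and 43.3 ± 19.6 CPM in skin (SD, n = 4) and 43.1 ± 12.5 CPM in SDLN (SD, n = 3) for Ndufaf3. Without skin 2 the estimate of Ndufaf3 was -0.37, against 0.01 with it.

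Complex II was lower by estimate in all 4 genes, and 0 passed the test. Sdha, the flavoprotein that oxidises succinate, had 574, 202, 286 and 365 CPM in skin 1 to 4, against 947, 880.2 and 774 CPM in SDLN 1 to 3. All skin libraries were below all SDLN libraries, and here SDLN 3 was the lowest of the SDLN libraries. The means were 357 ± 159 CPM in skin (SD, n = 4) and 867 ± 87.3 CPM in SDLN (SD, n = 3), a 2.43-fold difference (log2 fold change -1.28, SE 0.35, adjusted p = 0.0762). Sdha passed the threshold in 5 of 15 alternatives, among them DESeq2 (adjusted p = 0.0114) and the fit without skin 1 (0.0240), and adjusted p ranged from 0.0114 to 0.267. Sdhb, the iron-sulphur subunit, averaged 219 ± 89.9 CPM in skin (SD, n = 4) and 329 ± 83.5 CPM in SDLN (SD, n = 3). The membrane anchors Sdhc and Sdhd averaged 81.7 ± 45.6 and 205 ± 94.6 CPM in skin (SD, n = 4), against 101 ± 15.1 and 254 ± 58.9 CPM in SDLN (SD, n = 3). For Sdhb, Sdhc and Sdhd the tissues overlapped, with log2 fold changes of -0.59, -0.30 and -0.31 and adjusted p of 0.499, 0.853 and 0.781.

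In complex III, 7 of 8 genes had estimates below 0 and 0 were called. Uqcrc2, a large core protein of the matrix face, had 224, 197, 279 and 201 CPM in skin 1 to 4, against 403, 356 and 549 CPM in SDLN 1 to 3 (log2 fold change -0.95, SE 0.25, adjusted p = 0.0670). The tissues did not overlap for Uqcrc2, and the skin libraries spread over no more than 1.41-fold. Without skin 3, Uqcrc2 was called lower (adjusted p = 0.0416). Its partner Uqcrc1 had 222, 233, 114 and 44.6 CPM in skin 1 to 4, against 434, 374 and 175 CPM in SDLN 1 to 3 (log2 fold change -1.10, SE 0.58, adjusted p = 0.386), and SDLN 3 lay inside the skin range. Uqcrh, the hinge protein, was the most abundant gene of the complex per length, with 166 CPM per kilobase in skin and 238 CPM per kilobase in SDLN (log2 fold change -0.52, adjusted p = 0.634). The small subunit Uqcr10 averaged 89.4 ± 39.8 CPM in skin (SD, n = 4) and 89.0 ± 24.3 CPM in SDLN (SD, n = 3), with a log2 fold change near 0 whose sign varied with the processing. Uqcrfs1, the Rieske iron-sulphur protein, was at 19.5 ± 6.18 CPM in skin (SD, n = 4) and 20.7 ± 1.52 CPM in SDLN (SD, n = 3).

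Complex IV had the estimates nearest to 0, with a median of -0.11 over 12 tested genes, 7 of them below 0, and 0 called. Cox4i1, a subunit needed for assembly of the enzyme, was the most abundant of all 92 genes per length, with 349 CPM per kilobase in skin and 381 CPM per kilobase in SDLN (log2 fold change -0.12, SE 0.31, adjusted p = 0.906); the estimate was 0.03 without skin 1 and 0.14 without SDLN 3. Cox7a2l, a factor that links complexes III and IV into supercomplexes, stood apart from the other complex IV genes. Cox7a2l had 50.4, 56.1, 75.4 and 96.1 CPM in skin 1 to 4, against 153, 129.7 and 193 CPM in SDLN 1 to 3, with no overlap between tissues (log2 fold change -1.19, SE 0.34, adjusted p = 0.0889). It passed the threshold with DESeq2 alone (adjusted p = 0.0121), of the 15 alternatives run. Cox5a, a subunit of the matrix side, had the highest estimate (log2 fold change 1.02, SE 0.96, adjusted p = 0.681) at a low level, 16.8 ± 9.03 CPM in skin (SD, n = 4) and 8.24 ± 1.42 CPM in SDLN (SD, n = 3).

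The isoform families of complex IV were counted mainly as their widely expressed members. In skin and SDLN, Cox6a1, Cox6b1, Cox7a2, Cox7b and Cox8a were counted in all 7 libraries. Of their relatives, the muscle isoform Cox6a2 and the testis isoforms Cox7b2 and Cox8c had 0 counts in all 7 libraries, where 3 counts would correspond to a mean of 0.249 CPM in skin. The muscle isoforms Cox7a1 and Cox8b and the oxygen-responsive isoform Cox4i2 were too low to test: Cox7a1 reached 1.94 CPM in skin 3 and 0.611 CPM in SDLN 1, and Cox8b 0.264 CPM in skin 3 alone. Cox4i2 had 0.276, 0, 5.38 and 5.14 CPM in skin 1 to 4, against 0.136, 0 and 0 CPM in SDLN 1 to 3. The testis isoform Cox6b2 had 0, 0, 1.76 and 5.21 CPM in skin 1 to 4, against 0.950, 1.24 and 0.695 CPM in SDLN 1 to 3, absent from skin 1 and skin 2. Ndufa4l2, a hypoxia-induced relative of Ndufa4, had a single count, in skin 3. The skin 3 counts of Cox7a1 and Cox8b occurred in the library with 53.2 CPM of skeletal muscle markers. The other skin libraries held 0.828 to 33.3 CPM and SDLN 16.7 to 21.2 CPM. Over all 7 libraries, 7 of 8 of these markers were detected. In skin 3 most of the sum was Acta1 (28.5 CPM) and Tnnc2 (16.6 CPM), and Myh1, Myh4 and Tnni2 were at 0. Skin 3 also held 191 CPM of adipocyte markers, all of it Fabp4, against 0 to 0.0809 CPM in the other skin libraries. The part of muscle or other cells in the counts of Cox7a1 and Cox8b was not tested.

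**Figure D2:**
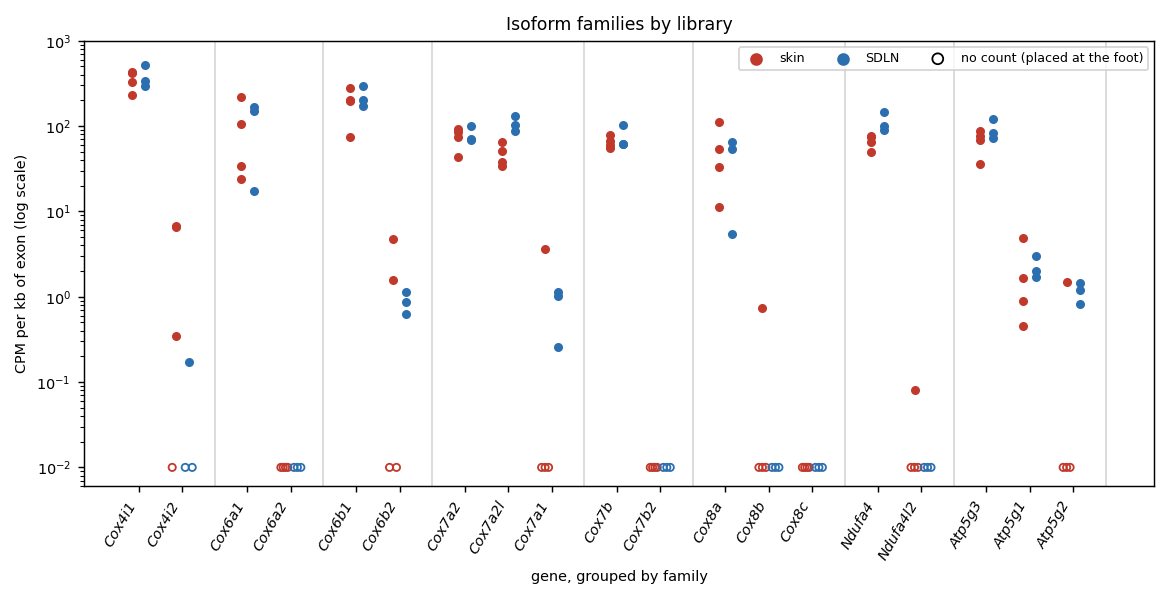
Level of each isoform in CPM per kilobase of exon (log axis) by library, skin in red left of SDLN in blue; open circles at the foot are libraries with no count. Cox6a2, Cox7b2 and Cox8c have no count in any library, and Cox4i1 lies highest at 349 in skin and 381 in SDLN on average.

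Complex V had 1 gene called lower and 0 higher among 17 tested. Atp5s, known as factor B, is named for ATP synthase although it is not a core subunit of the enzyme. It lies at chr12:69724950-69744660 on the plus strand (GRCm38). Atp5s had 0 counts in each of the 4 skin libraries, against 99, 140 and 139 counts in SDLN 1 to 3. In CPM this was 0 in skin and 9.04 ± 2.08 in SDLN (SD, n = 3), at least 36.3-fold lower in skin against a floor of 3 counts per library (edgeR adjusted p = 0.0390). The gene passed the low-count filter through the SDLN libraries alone, so its call describes these counts and is no support for a change of complex V. Adjusted p was 0.0279 to 0.0417 when a skin library was left out, and 0.182, 0.181 and 0.171 without SDLN 1, 2 and 3.

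Of the catalytic head and central stalk, Atp5a1, Atp5b, Atp5d and Atp5c1 did not pass the test, and their estimates had different signs. Atp5a1, the alpha subunit, had 642, 364, 875 and 371 CPM in skin 1 to 4, against 1058, 959 and 1094 CPM in SDLN 1 to 3 (log2 fold change -0.88, SE 0.34, adjusted p = 0.212). The tissues did not overlap, and skin 3 was the highest skin library; without it the gene was called lower (log2 fold change -1.17, adjusted p = 0.0470). Atp5b, the beta subunit that holds the catalytic sites, had 386, 428, 644 and 424 CPM in skin 1 to 4, against 222, 393 and 160.2 CPM in SDLN 1 to 3 (log2 fold change 0.86, SE 0.36, adjusted p = 0.253). Its tissues overlapped through skin 1 and SDLN 2. Atp5d, the delta subunit of the central stalk, had 28.3, 179, 137 and 82.1 CPM in skin 1 to 4, against 32.4, 43.6 and 29.2 CPM in SDLN 1 to 3 (log2 fold change 1.60, SE 0.63, adjusted p = 0.216). Skin 1 lay just below the SDLN libraries and the other skin libraries lay above them, and without skin 1 the gene was called higher (log2 fold change 1.92, adjusted p = 0.0317). Exons of Atp5d overlap those of Cbarp and exons of Atp5a1 those of Haus1 in the annotation, so reads there could belong to either gene. Atp5c1, the gamma subunit of the central stalk, averaged 359 ± 123 CPM in skin (SD, n = 4) and 583 ± 151 CPM in SDLN (SD, n = 3) (log2 fold change -0.70, SE 0.34, adjusted p = 0.336).

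Among the stator and membrane genes, Atp5f1, subunit b of the peripheral stalk, had 184, 139, 172 and 152 CPM in skin 1 to 4, against 307, 258 and 412 CPM in SDLN 1 to 3. Its tissues did not overlap, and it came nearest to the threshold of the genes that missed it (log2 fold change -1.01, SE 0.26, adjusted p = 0.0558). Without skin 1 it was called lower (adjusted p = 0.0445). It shares 23.2% of the 50-base windows of its transcript with transcripts of other genes, and its exons overlap those of Wdr77. Atp5o, the stalk subunit named for oligomycin sensitivity, and Atp5c1 had estimates in the same direction, -0.62 and -0.70 on the log2 scale, without passing the test. The membrane ring of subunit c is encoded by 3 genes for the same mature protein. Atp5g3 was the highest of them per length, with 67.0 CPM per kilobase in skin and 92.7 CPM per kilobase in SDLN, compared with 1.96 and 2.24 CPM per kilobase for Atp5g1. Atp5g1 shares 11.6% of its windows with other genes and has 4912 bases of annotated exon, against 2181 for Atp5g3. Its level is therefore uncertain and is not read as low expression. Atp5g2 had 0, 0, 0 and 2.50 CPM in skin 1 to 4, against 2.44, 2.0 and 1.39 CPM in SDLN 1 to 3, a single skin library, and 87.4% of its windows are shared with other genes. Without skin 4 all skin libraries were at 0 for Atp5g2, and its call as lower in that fit (adjusted p = 0.0415) came from a gene with counts in SDLN alone and is not read as a difference.

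**Figure D3:**
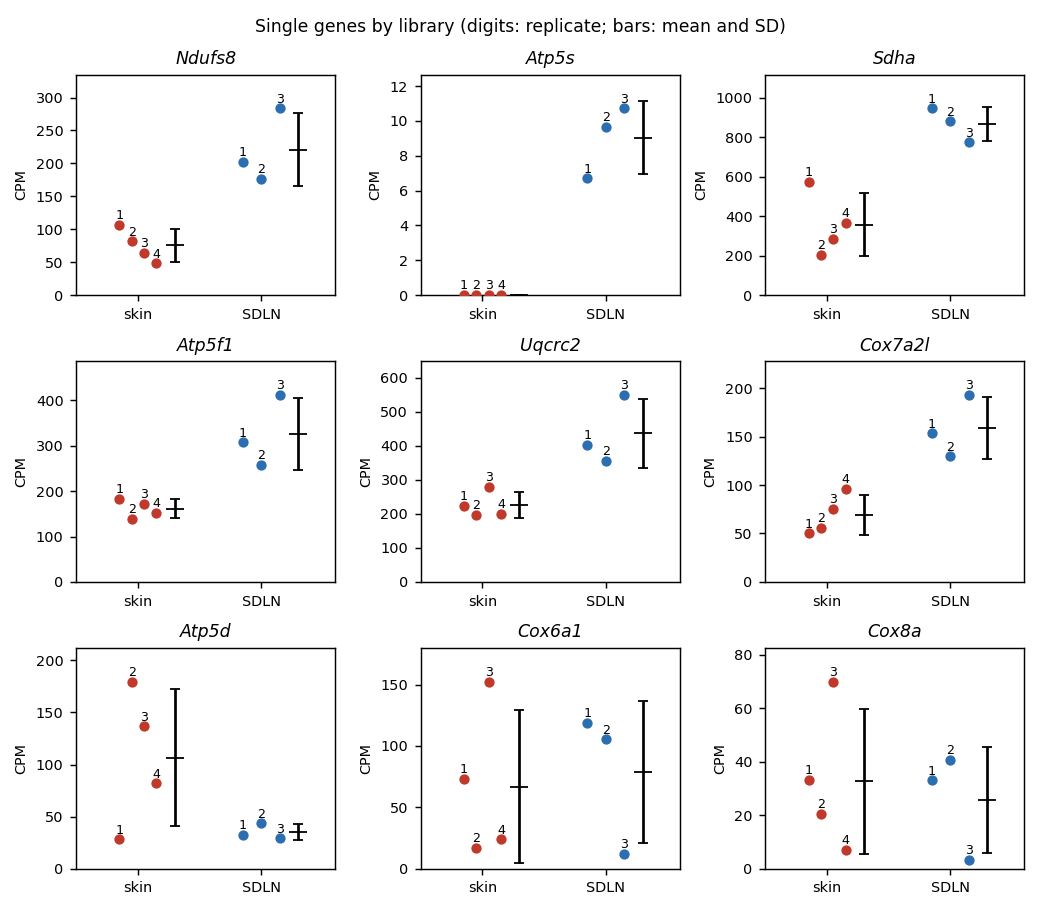
CPM of 9 genes by library, skin in red left of SDLN in blue; digits give the replicate and bars the mean and SD. Ndufs8, Atp5s, Sdha, Atp5f1, Uqcrc2 and Cox7a2l show no overlap between tissues, Atp5d overlaps through skin 1, and SDLN 3 lies far below SDLN 1 and 2 for Cox6a1 (12.1 CPM) and Cox8a (3.32 CPM).

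Summed over the 92 genes, the members made up 7308, 8727, 9251 and 9134 CPM in skin 1 to 4, against 11522, 10409 and 14108 CPM in SDLN 1 to 3. The skin mean was 28.4% below the SDLN mean with no overlap; it was 24.8% below without skin 1 and 21.5% below without SDLN 3. Complex II had the lowest ratio of skin to SDLN, 0.556, with 1049, 653, 701 and 1044 CPM in skin 1 to 4, against 1589.9, 1432 and 1632 CPM in SDLN 1 to 3. Complex III followed at 0.634, complex I subunits at 0.731 and complex V at 0.746, each without overlap between tissues. Complex IV, at 0.877, overlapped and was 1.61% lower in skin without SDLN 3 and 2.95% lower without skin 1. The complex I assembly factors, at 0.720, overlapped through skin 2. Such sums weigh abundant genes most, and no test was made on them. In complex II, Sdha alone averaged 357 CPM in skin and 867 CPM in SDLN, beside mean sums of 862 and 1551 CPM. The low ratio of complex II therefore rested mainly on Sdha, and for Sdhb, Sdhc and Sdhd the tissues overlapped.

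**Figure D4:**
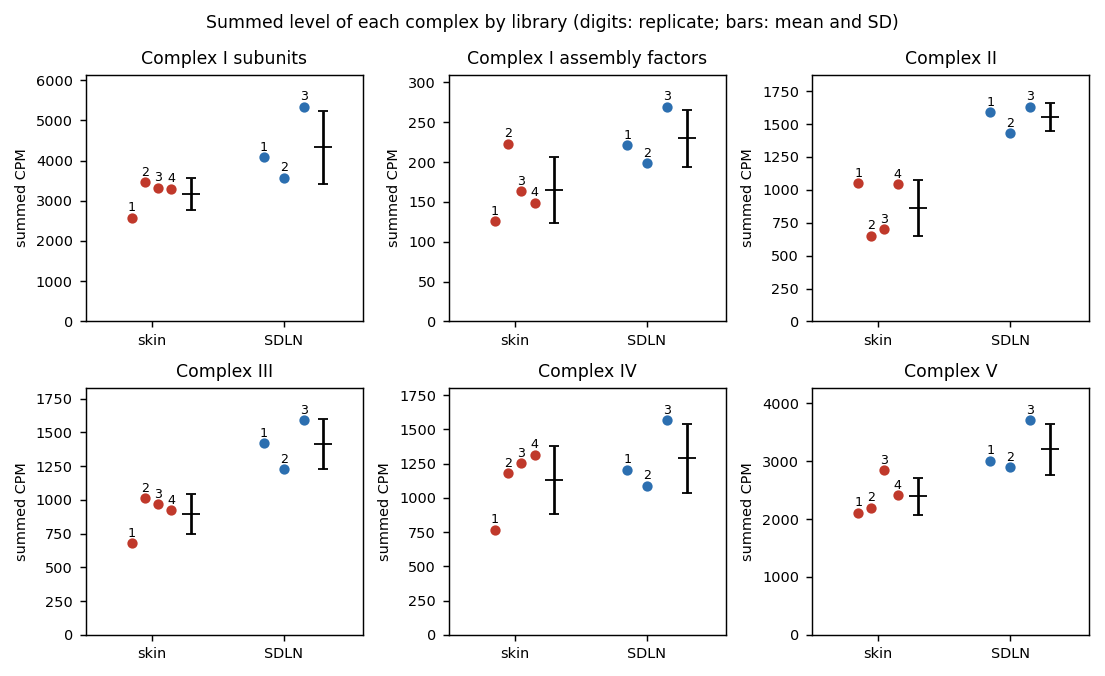
Summed CPM of each complex by library, skin in red left of SDLN in blue; digits give the replicate and bars the mean and SD. Complexes I, II, III and V show no overlap between tissues, complex IV and the assembly factors do, and SDLN 3 is the highest library of every panel.

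Some libraries stood at an end of the range for many genes at once. Skin 1 was the lowest skin library for 50 of the 84 tested members (59.5%, against 41.0% of all tested genes). SDLN 3 was the highest SDLN library for 66 members (78.6%, against 40.7%), including 31 of 36 complex I subunits and 7 of 8 genes of complex III. Relative to the SDLN mean, the members' median log2 CPM difference (with 0.5 CPM added) was -0.94, -0.32, -0.30 and -0.26 in skin 1 to 4 and -0.13, -0.30 and 0.36 in SDLN 1 to 3. Over all tested genes the same medians were -0.49, -0.51, -0.08 and -0.20 in skin 1 to 4 and between -0.01 and 0.00 in SDLN. The members' median coefficient of variation was 0.432 in skin and 0.270 in SDLN, whereas over all tested genes it was 0.7499 in skin and 0.187 in SDLN. By this measure the members were less variable in skin than the typical gene, and in SDLN more so. These medians are not matched for level, and fewer members than genes at large had no count in a skin library. The SDLN value includes SDLN 3, the highest SDLN library for 78.6% of members. The part of either in these medians was not tested.

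A few members ran against the high values of SDLN 3. Cox8a, the widely expressed small subunit, had 33.1, 20.6, 69.8 and 6.99 CPM in skin 1 to 4, against 33.1, 40.7 and 3.32 CPM in SDLN 1 to 3. In SDLN 3 it was 11.1-fold below the mean of SDLN 1 and 2. Cox6a1, whose promoter is shown above, had 73.5, 17, 152 and 23.9 CPM in skin 1 to 4, against 119, 105 and 12.1 CPM in SDLN 1 to 3, and was 9.24-fold lower in SDLN 3. Both genes also varied widely in skin, by 9.99-fold and 8.95-fold between the extreme libraries, and neither differed between tissues beyond that spread (adjusted p = 0.921 and 0.946). Uqcrc1 was 2.31-fold lower in SDLN 3. In all, 4 tested members (4.76%) were under 50% of the lower of the other SDLN libraries there, compared with 4.04% of all tested genes.

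**Figure D5:**
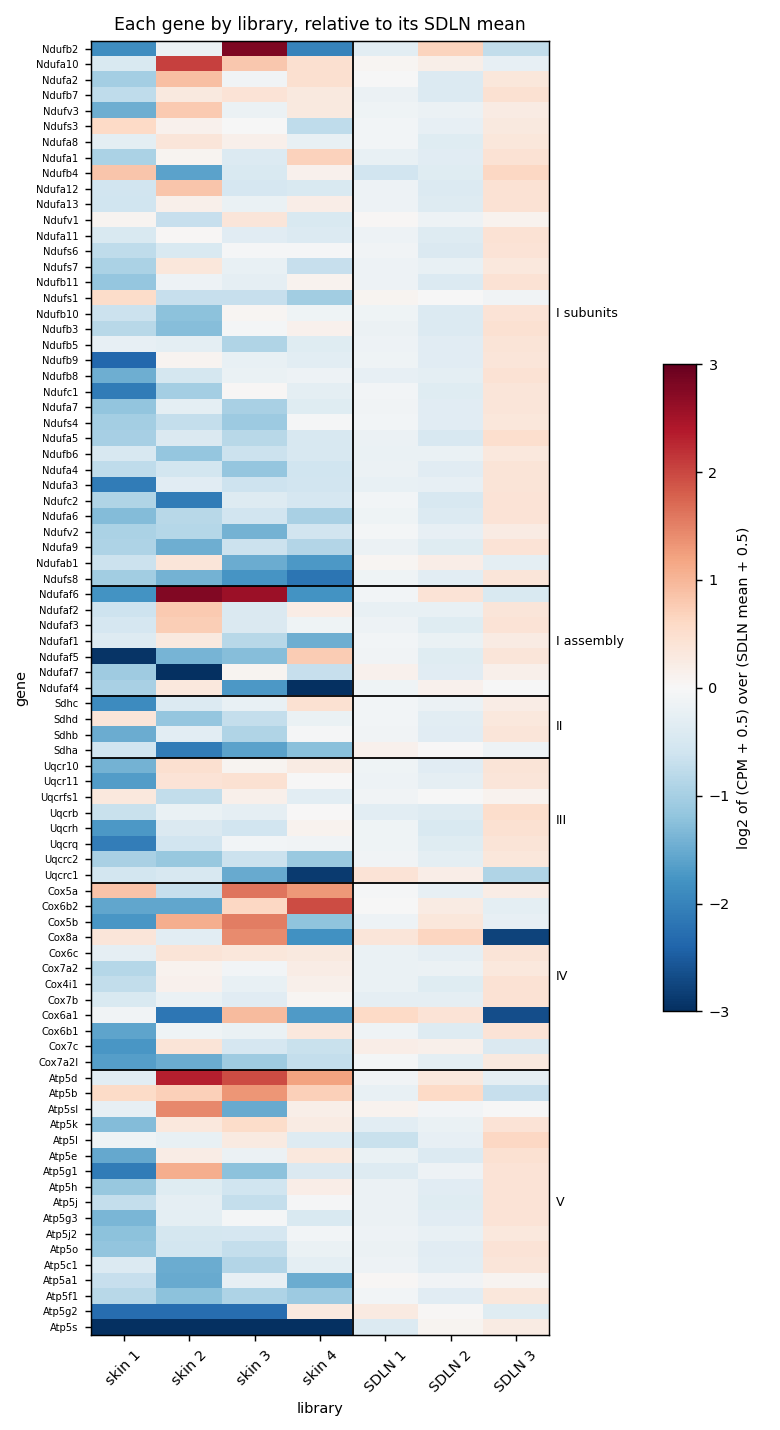
The tested members reported here by library, as log2 of (CPM + 0.5) over (SDLN mean + 0.5), ordered within complex by fold change; colours run from 3 below (blue) to 3 above (red). Blue prevails in the 4 skin columns on the left, most of all in skin 1, and SDLN 3 is pale red for most genes but dark blue for Cox8a and Cox6a1.

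Per length, the members spanned a wide range, headed by Cox4i1 (363 CPM per kilobase over all libraries), Atp5a1 (244), Atp5c1 (239), Cox6b1 (203) and Uqcrh (197). In the deposited table, reads that align to several places are set aside, and 37 members share at least 1 window of 50 bases with an annotated transcript of another gene. The 10 members that share over 25% of their windows had a median of 3.16 CPM per kilobase and ranged from 0 to 56.9. The 55 that share none had a median of 55.1 CPM per kilobase and ranged from 0 to 363. Below the median of the 10 lie Atp5l (68.5% of windows, 0.605 CPM per kilobase), Cox7c (53.0%, 2.88), Ndufb4 (37.0%, 2.04) and Ndufs5 (31.1%, 0 counts in all 7 libraries). Exons of 31 members overlap those of another annotated gene, as Cox4i1 does with Emc8 and Ndufaf3 with Impdh2, and the strand setting of the counting is not given. Levels of such genes are uncertain and are not read here as low expression. Ndufs8, Atp5s, Sdha, Uqcrc2, Ndufv2 and Ndufa9 share no window, and of these Uqcrc2 overlaps exons of Pdzd9 and Ndufa9 those of 1700018A23Rik.

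Other nuclear genes of mitochondrial energy metabolism were read from 5 lists. The 5 subunits and carriers outside the name rule had 0 called in either direction. Among them Atpif1, the inhibitor of ATP synthase's reverse reaction, had 92.9, 166, 157 and 136 CPM in skin 1 to 4, against 57.5, 50.5 and 85.6 CPM in SDLN 1 to 3 (log2 fold change 1.10, SE 0.36, adjusted p = 0.132). All skin libraries lay above all SDLN libraries for Atpif1, although 76.2% of the members had estimates below 0. Of 39 tested assembly factors outside the name rule, 0 were called and the median log2 fold change was -0.38; Coa3, a complex IV assembly factor and the most abundant of them per length, averaged 61.3 ± 14.4 CPM in skin (SD, n = 4) and 112 ± 17.2 CPM in SDLN (SD, n = 3). Of 14 citric acid cycle genes, 0 were called and the median was -0.59. Cs, citrate synthase, which opens the cycle and was named after its values were seen, averaged 228 ± 81.1 CPM in skin (SD, n = 4) and 451 ± 48.4 CPM in SDLN (SD, n = 3) (log2 fold change -0.98, SE 0.30, adjusted p = 0.113); Mdh2, the most abundant per length, had a log2 fold change of -0.46 (adjusted p = 0.424).

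Of 15 tested regulators of mitochondrial biogenesis, 0 were called higher and 1 lower, with a median of 0.05. The called gene, Perm1, a regulator known from muscle, had 0 counts in all 4 skin libraries, against 45, 75 and 18 counts in SDLN 1 to 3, at least 12.9-fold lower in skin (edgeR adjusted p = 0.0390; 0.0697 with DESeq2 and 0.165 to 0.176 without an SDLN library). Like Atp5s, Perm1 passed the low-count filter through the SDLN libraries alone, so its call is a description of these counts and no support for a change of the list. Of 24 import and carrier genes, 1 was called higher and 0 lower, with a median of -0.23. Slc25a3, the carrier that brings phosphate into the matrix for ATP synthesis, rose in skin. It had 209, 812, 317 and 451 CPM in skin 1 to 4, against 92.5, 77.3 and 93.1 CPM in SDLN 1 to 3. Every skin library was above every SDLN library, with skin 2 highest, and the rise was 5.10-fold (log2 fold change 2.35, SE 0.48, adjusted p = 0.0380); adjusted p was 0.0547 without skin 4 and 0.165 to 0.176 without an SDLN library. The carrier Slc25a5, which exchanges ADP for ATP and was named after its values were seen, had 327, 188, 386 and 278 CPM in skin 1 to 4, against 547, 513 and 811 CPM in SDLN 1 to 3 (log2 fold change -1.08, SE 0.31, adjusted p = 0.0861), the opposite direction from Slc25a3 without passing the test.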

How the data were processed

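Messenger RNA of sorted Tregs was sequenced in 4 skin and 3 SDLN libraries; RNA was purified on columns and cDNA made with a SMARTer low-input kit, per the labels. The table the authors deposited holds raw counts of reads for each gene symbol, not normalized. According to the submitters' processing notes the counter was HTSeq (version 0.6.1), after CASAVA (1.8.2), TopHat2 (version 2.0.12) with Bowtie2 (version 2.1.0.0), and SAMtools (version 0.1.19.0), on build mm10. Annotation, strandedness and read filters: not given in the sources used here. Reads aligned to more than a single place were set aside on a summary line. They took 61.2% to 64.85% of a library's total in skin and 64.90% to 70.4% in SDLN, most in SDLN 3. Reads outside the counted genes took 14.6% to 17.1% in skin and 10.0% to 13.0% in SDLN. The part of these differences in the results was not tested. Summary lines entered neither library sizes nor tests.

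The members and lists were chosen with earlier results of these data known. The filterByExpr function (minimum count of 10) of edgeR 4.0.16 in R 4.3.3 left 11376 genes, which were scaled by TMM. The quasi-likelihood test of edgeR, robust and two-sided, had tissue as its term, and p-values were adjusted after Benjamini and Hochberg over all tested genes. All fold changes are skin over SDLN. CPM use TMM-scaled library sizes, so they are shares of a library and not amounts per cell. The floor of 3 counts covers counting error alone. Positions, exon lengths, overlaps and shared windows of 50 bases come from GENCODE (GRCm38), and promoters from RefSeq (GRCm38.p6).

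Genes were named by rule: called members; in each group the 2 most abundant per length and those with the largest and smallest fold change; the isoform families; Sdha to Sdhd; and per other list the called genes or the most abundant. Genes named for not overlapping, for nearness to the threshold, for shared windows or for a single library (Ndufv2, Ndufa9, Ndufa6, Ndufa3, Ndufb6, Ndufaf7, Uqcrc2, Uqcrfs1, Atp5b, Atp5f1, Atp5o, Atp5l, Cox7c, Ndufb4, Ndufs5, Cs and Slc25a5), and the Treg markers given with tests, were chosen after their values were seen. A member that enters the counts and sums is not reported here. Alternatives comprised scaling by RLE or none, dropping the low-count filter or asking for a mean CPM of 5 or more, DESeq2 1.42.0, limma-voom (limma 3.58.1) with and without a variance weight per tissue, a block for the replicate number, leaving out single libraries, and an adjusted p under 0.01. Simulated counts with known changes served to check the scripts.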

Additional observations from a re-analysis of the deposited data

Results flagged for a closer look

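Of 42 groups of values checked, 2 held a library far from the others of its tissue, and chance gives about 1 in 20. The first is Ndufb2 in skin, where skin 3 had 21.3 CPM and the next library 2.27 CPM, a gap of 0.906 of the whole range. The second is Atp5g2 in skin, where skin 4 had 2.50 CPM and the others had no count, a gap of 1, the whole range. Both genes were low, and 87.4% of the windows of Atp5g2 are shared with other genes.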

How the results depend on the processing

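The direction of no called gene reversed, but the calls depended on the processing. Of the members, 2 were called lower; the number was 4 with no scaling, 8 with DESeq2, and 0 with no low-count filter, with a mean of at least 5 CPM, at an adjusted p under 0.01 and with the replicate block. Leaving out 1 library gave 0 to 4 lower and 0 to 1 higher. The other mitochondrial genes had 1 called higher and 1 lower; the numbers were 0 and 0 with no filter, with the block and at 0.01, 3 and 2 with DESeq2, 0 lower with a mean of at least 5 CPM, 2 lower with limma-voom, 3 lower with the variance weight, and 0 to 3 higher and 0 to 4 lower with a library left out. Their median log2 fold change, -0.38 in the fit reported, was -0.75 with the block.

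Over all genes, 373 were called higher and 451 lower; these were 188 and 70 with no filter, 99 lower with a mean of at least 5 CPM, 923 higher with DESeq2, 247 and 688 with limma-voom, 593 and 1002 with the variance weight, 72 and 16 at 0.01, and 33 to 582 and 9 to 822 with a library left out. With the replicate number as a block over 6 libraries, 32 and 10 were called. Deviations of same-numbered libraries from their tissue means had correlations near 0 (r = 0.087, -0.003 and -0.052 across genes). Skin 1 and SDLN 1 matched each other best, whereas the libraries numbered 2 and 3 matched other numbers best. With so few libraries, these correlations cannot tell whether same-numbered libraries share an animal or a preparation. Of 58 tested genes that are named with values, Foxp3, Il2ra, Tnfrsf18 and Cd3g not among them, 19 changed their call under some alternative. For 0 of the 19 the direction reversed. The cause of these changes was not tested, apart from the fewer libraries left. Where a gene had no count in a tissue, as Atp5s in skin, the floor of 3 counts sets its bound and limits what depth can show.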
